A study of Oryza sativa with 24 samples.

Results

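Among the genes measured in rice anthers, 124 changed with cold in both Nipponbare and Lambayeque1 and changed little in Sasanishiki and PL9. They were chosen from the values themselves. For each line the change was taken as log2 of the mean signal of the 3 cold libraries plus 1, minus log2 of the mean of the 3 control libraries plus 1. A member had a change of at least 1 in both Nipponbare and Lambayeque1, or of at most -1 in both, an absolute change under 0.5 in both Sasanishiki and PL9, and a mean of at least 5 in its highest group. Of 32511 identifiers that stand on 1 row of the deposited files, 16086 reached that mean and 124 met every condition, 44 of them higher and 80 lower in cold. Because cold against control in each line chose these genes, all 4 of those comparisons are given below as descriptions, with no test, and "rose" and "fell" refer to the rule.

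The series sequenced RNA of whole anthers from 4 rice (Oryza sativa) lines. Cold groups were Nipponbare, Lambayeque1, Sasanishiki and PL9 plants kept at 12 °C for 4 days in the booting stage, when microspores were young, and the control groups were untreated plants of the same lines. Each of the 8 groups had 3 libraries by the sample titles, although the series text speaks of 2 replicates. All plants were raised with 20 per pot at a day temperature of 25 °C and a night temperature of 19 °C, and were reduced to the main stem. The labels tie no library to its own plants, so each spread and p-value covers these libraries and may be technical. The labels do not say when untreated anthers were taken relative to the end of the cold. Nipponbare and Sasanishiki are Japanese cultivars, and the labels do not describe how Lambayeque1 and PL9 are related to them.

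Rice is most easily made sterile by cold while its microspores are young. In that phase the tapetum, the layer that lines the anther cavity, feeds the microspores and builds their wall, and it can swell and break down late in the cold. Lines differ in how well their pollen survives such cold, and a gene that responds in some lines and not in others can differ in the strength of its response, in its untreated level or in the timing of anther development. An anther is a mixture of cell types, and in bulk RNA fewer cells of a type and less RNA per cell cannot be told apart.

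The values are an abundance signal without a stated depth. Column totals were 1.197 to 1.723 times that of a TPM column, and each library had 17563 to 19303 identifiers at 1 or more. Stamen genes were high in all groups. OsMADS16, a stamen identity gene, averaged between 958 and 1736, whereas the 4 carpel and outer floret markers summed to at most 19.9 in any library. Libraries 1 and 2 of PL9 after cold stood apart from the rest of the series in their correlation with their own group, whose lowest median was 0.891. CYP703A3, which hydroxylates fatty acids for the pollen wall in the tapetum, was 0.42 in PL9 cold library 1, against 1405 in library 2 and 226 in library 3. With PL9 cold taken from library 3 alone, the rule found 49 rising and 78 falling genes, 36 and 66 of them among the members.

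The 44 rising genes had a median change of 1.41 in Nipponbare, with a range of 1.0 to 3.28, and of 1.21 in Lambayeque1, with a range of 1.02 to 2.85. Their median change was 0.11 in Sasanishiki and 0.23 in PL9. The 80 falling genes had a median change of -1.81 in Nipponbare, with a range of -4.89 to -1.02, and of -1.56 in Lambayeque1, with a range of -3.24 to -1.01. Falling genes had a median change of -0.12 in Sasanishiki and -0.18 in PL9. The change was larger in Nipponbare than in Lambayeque1 for 28 of the 44 rising and 50 of the 80 falling genes. A further 4 genes rose in Nipponbare and fell in Lambayeque1 with the other lines under the limit, and 0 did the reverse. The same rule with the lines exchanged found 87 genes that changed in Sasanishiki and PL9 and little in Nipponbare and Lambayeque1, 46 higher and 41 lower in cold.

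The small changes in Sasanishiki and PL9 leaned the same way as the large ones. Among rising genes the change in Sasanishiki was above 0 for 27, below 0 for 11 and 0 for 6, and that in PL9 was above 0 for 31, below 0 for 12 and 0 for 1. Among falling genes the change in Sasanishiki was below 0 for 55, above 0 for 20 and 0 for 5, and that in PL9 was below 0 for 58 and above 0 for 22. The limit of 0.5 lets such changes pass, so the lean is a description of the genes chosen.

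**Figure D1:**
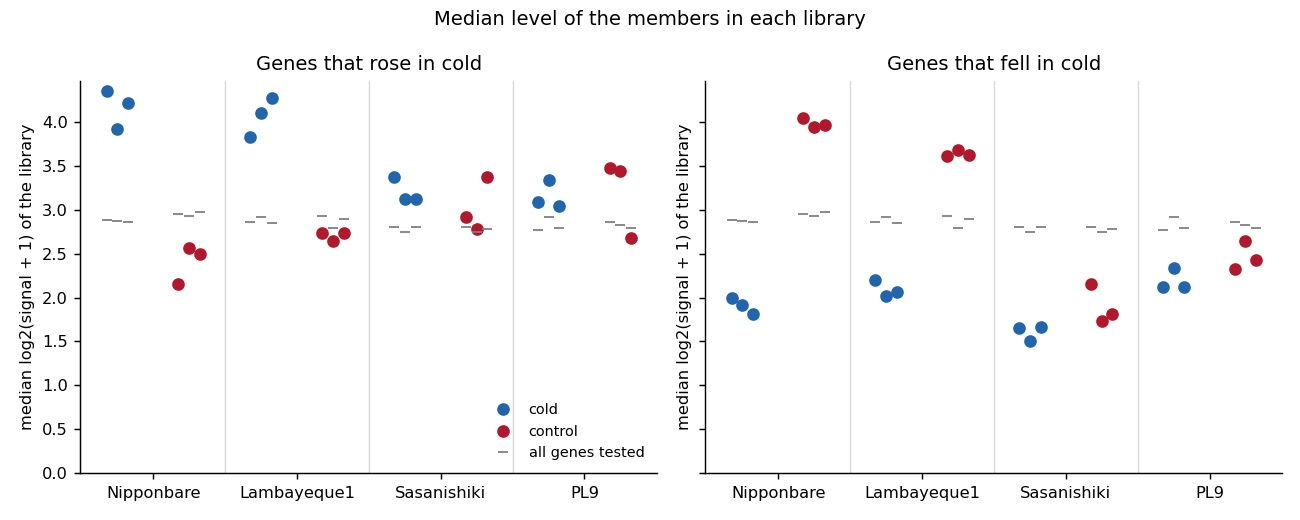
Median log2(signal + 1) of the 44 rising genes (left) and the 80 falling genes (right) in each library, cold in blue and control in red, with the median of all 22495 genes tested as grey dashes. Cold and control libraries are well apart in Nipponbare and Lambayeque1, and the Sasanishiki and PL9 libraries of both treatments lie close to each other.

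The medians over members showed this library by library. For rising genes the library median of log2(signal + 1) was 3.92 to 4.36 in Nipponbare cold libraries, against 2.16 to 2.57 in Nipponbare control libraries. In Lambayeque1 it was 3.83 to 4.28 in cold libraries and 2.64 to 2.74 in control libraries. The Sasanishiki cold libraries gave 3.12 to 3.38 and its control libraries 2.78 to 3.37, while PL9 gave 3.04 to 3.34 in cold and 2.68 to 3.48 in control libraries. For falling genes the median was 1.81 to 2.0 in Nipponbare cold libraries, against 3.95 to 4.05 in its control libraries, and 2.02 to 2.2 in Lambayeque1 cold libraries, against 3.61 to 3.68 in its control libraries. Falling genes were low in both treatments of the other lines, with 1.5 to 1.66 in Sasanishiki cold libraries, 1.73 to 2.15 in its control libraries, 2.12 to 2.34 in PL9 cold libraries and 2.33 to 2.65 in its control libraries. Over all 22495 genes tested the library medians lay between 2.75 and 2.98.

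In Nipponbare all cold libraries were above all control libraries for 40 of the 44 rising genes, where 20.1% of all genes tested did so, and in Lambayeque1 for 39, where the background was 21.7%. Both held for 36. For the falling genes all cold libraries were below all control libraries for 72 of 80 in Nipponbare, with a background of 21.8%, and for 70 in Lambayeque1, with a background of 20.2%. Both held for 66. The share of all genes tested that were apart in both lines was not computed for either direction. These counts follow from the rule. The rule also limited the changes in Sasanishiki and PL9, so low counts in these lines are tied to the choice and are a description. The backgrounds cover all genes tested, without that limit. In Sasanishiki the cold libraries were all above the control libraries for 4 rising genes and all below them for 1, with backgrounds of 18.7% and 17.7%. In PL9 the cold libraries were all above for 3 rising genes, with a background of 16.6%. Among falling genes the cold libraries were all below for 8 in Sasanishiki and 10 in PL9, where the background was 17.9%, and all above for 1 in each of these lines.

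Of the 124 members, 4 carry a name whose place on the chromosome was checked, and the other 120 are given by identifier alone. ALK (Os06g0229800, chromosome 6), starch synthase IIa, an enzyme that lengthens amylopectin chains and is best known from the endosperm, rose. Its signal was 11.3, 7.44 and 2.80 in Nipponbare cold libraries, against 0.963, 0.334 and 1.14 in Nipponbare control libraries. In Lambayeque1 it was 28.7, 8.80 and 21.6 in cold libraries and 2.99, 1.24 and 2.08 in control libraries. The groups did not overlap in either line, with changes of 2.17 in Nipponbare and 2.74 in Lambayeque1. Sasanishiki had 3.997, 6.501 and 3.82 in cold libraries and 6.53, 3.12 and 9.28 in control libraries, and PL9 had 9.44, 4.13 and 6.36 in cold libraries and 5.34, 5.75 and 2.55 in control libraries. In these lines the libraries overlapped, and both treatments lay between the mean cold and the mean control level of Nipponbare and Lambayeque1. Over both treatments ALK was higher in Lambayeque1 than in Nipponbare by 1.06 on the log2 scale (adjusted p = 0.0393, limma), and 5 of 6 Lambayeque1 libraries were above the Nipponbare median. That median lies between the control and cold libraries of Nipponbare, so the rise required by the rule adds to this count.

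The adjacent genes Os03g0184100 and Os03g0184000 on chromosome 3 were among the 5 rising genes with the highest group mean. Os03g0184100 was 110.5, 75.2 and 116.8 in Nipponbare cold libraries, against 23.3, 28.9 and 8.06 in its control libraries. In Lambayeque1 it was 78.5, 87.1 and 80.3 in cold libraries and 17.0, 19.7 and 16.3 in control libraries. Cold and control were fully apart in both lines, with changes of 2.27 and 2.15. In Sasanishiki it stood at 61.8, 58.3 and 85.8 in cold libraries and at 104.9, 76.8 and 35.0 in control libraries, and in PL9 at 32.7, 77.3 and 34.8 in cold libraries and at 37.0, 49.2 and 32.5 in control libraries. Every untreated Sasanishiki and PL9 library was thus above every untreated Nipponbare and Lambayeque1 library. Os03g0184000 averaged 97.7 ± 28.6 in Nipponbare cold libraries, against 46.4 ± 0.756 in its control libraries, and 149.6 ± 23.97 in Lambayeque1 cold libraries, against 66.3 ± 6.11 in its control libraries (SD, n = 3). In Sasanishiki it averaged 174.9 ± 14.1 in cold and 158.9 ± 22.1 in control libraries, and in PL9 123.2 ± 48.1 in cold and 94.4 ± 21.98 in control libraries. The highest group mean of this gene was therefore in a line in which it hardly changed.

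**Figure D2:**
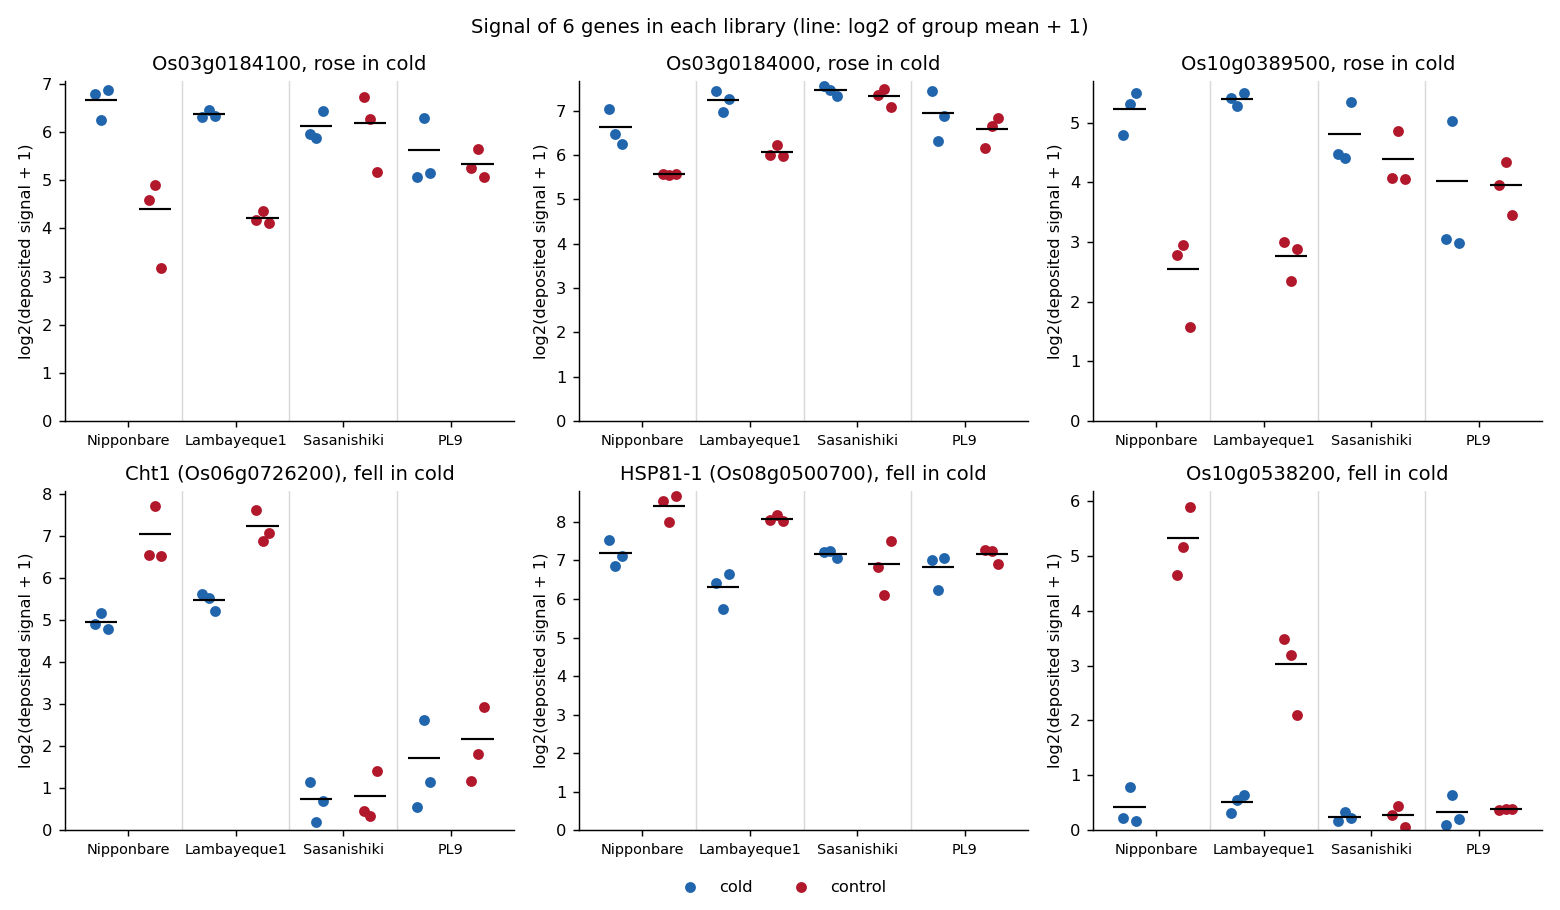
log2(deposited signal + 1) of 3 rising genes (top) and 3 falling genes (bottom) in each of the 24 libraries, cold in blue left of control in red, with the log2 of each group mean plus 1 as a black line. Cold and control are apart in Nipponbare and Lambayeque1, whereas Sasanishiki and PL9 lie near the cold level (Os03g0184000), between both levels (Os10g0389500) or far below (Cht1).

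Among rising genes, Os06g0614400 on chromosome 6 had the largest smaller change of Nipponbare and Lambayeque1, with 2.72 and 2.70. It reached 94.1, 25.1 and 24.5 in Nipponbare cold libraries, against 1.97, 7.89 and 9.33 in control libraries, and 72.9, 80.3 and 73.2 in Lambayeque1 cold libraries, against 11.4, 5.89 and 14.95 in control libraries. Sasanishiki lacked signal for it, with 0 listed in all 3 cold libraries and 0, 0 and 0.822 in control libraries, whereas PL9 held 31.0, 13.2 and 17.6 in cold libraries and 29.7, 15.8 and 13.1 in control libraries. The 2 lines called flat by the rule were thus unlike each other, and PL9 was higher than Sasanishiki over both treatments by 4.17 on the log2 scale (adjusted p = 9.779e-09, limma), in 6 of 6 libraries.

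Os10g0389500 on chromosome 10 was 26.9, 38.7 and 44.3 in Nipponbare cold libraries and 41.6, 37.8 and 44.4 in Lambayeque1 cold libraries, against 5.85, 6.70 and 1.995 in Nipponbare control libraries and 6.97, 4.08 and 6.42 in Lambayeque1 control libraries. Cold and control libraries of this gene were fully apart in both lines. In Sasanishiki it was 21.3, 20.3 and 39.8 in cold and 15.9, 28.2 and 15.6 in control libraries, and PL9 ranged over 7.27, 31.7 and 6.92 in cold and 14.5, 19.4 and 9.98 in control libraries, where 1 cold library stood far above the others.

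Os07g0432566 on chromosome 7 had signal in Nipponbare and Lambayeque1 and was listed at 0 in all 12 libraries of Sasanishiki and PL9. Its signal was 172.2, 67.1 and 118.7 in Nipponbare cold libraries, against 27.8, 38.8 and 28.2 in control libraries, and 113.8, 75.7 and 131.8 in Lambayeque1 cold libraries, against 19.6, 22.4 and 15.99 in control libraries. Whether its reads are missing or could not be assigned in these 2 lines cannot be told from the files. Os10g0166300 was listed at 0 in all 6 Sasanishiki libraries, while its mean in PL9 was 4.32 ± 2.31 in cold and 3.38 ± 0.881 in control libraries (SD, n = 3).

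A further 6 rising genes were named by the rule. Os07g0588300 averaged 7.09 and 7.68 in cold libraries of Nipponbare and Lambayeque1, against 1.34 and 1.43 in their control libraries, and all 4 means of Sasanishiki and PL9 lay between 5.81 and 7.45, near the cold level. Os09g0482620 showed the same arrangement, with 6.33 and 7.48 in cold, 1.52 and 2.19 in control libraries, and 5.23 to 7.48 in the other lines. Os07g0549900 averaged 61.5 and 54.9 in cold libraries of Nipponbare and Lambayeque1, against 12.4 and 21.5 in their control libraries, and 44.3 to 82.5 in the groups of the other lines. Os11g0137250 averaged 50.9 and 79.5 in cold, against 22.9 and 33.3 in control libraries, and in Sasanishiki it was far lower, with 9.06 in cold and 7.995 in control libraries. Os07g0493033 and Os11g0122800 were carried by some libraries. Os07g0493033 was 1.71, 8.59 and 3.04 in Nipponbare cold libraries, against 0, 1.78 and 0 in control libraries, which overlap. Os11g0122800 was 22.04, 7.28 and 0.269 in Nipponbare cold libraries, against 0.0590, 0.547 and 0.565 in control libraries, and 12.2, 0.350 and 14.8 in Lambayeque1 cold libraries, against 0.0511, 1.12 and 6.32 in control libraries. Its cold and control libraries overlapped in both lines although its changes were 2.97 and 1.53.

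Among the falling genes, HSP81-1 (Os08g0500700, chromosome 8), an HSP90 chaperone that helps signalling proteins and stress regulators fold, had the highest group mean. It was 182.0, 114.6 and 136.8 in Nipponbare cold libraries, against 367.5, 252.4 and 404.5 in its control libraries. In Lambayeque1 it was 83.7, 52.4 and 99.2 in cold libraries and 262.5, 285.6 and 256.6 in control libraries. No cold library reached a control library of its line, with changes of -1.24 and -1.76. Sasanishiki had 147.2, 149.6 and 131.7 in cold and 113.5, 67.2 and 178.9 in control libraries, and PL9 had 128.8, 74.5 and 133.1 in cold and 153.7, 150.8 and 119.1 in control libraries. Both lines were near the cold level of Nipponbare already without cold. HSP81-1 has close copies among the rice HSP90 genes, so reads may have been split between them and its level is uncertain. The gene beside it, Os08g0500800, fell as well, with changes of -1.02 in Nipponbare and -1.62 in Lambayeque1.

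Cht1 (Os06g0726200, chromosome 6), a chitinase that cuts chitin of fungal walls, fell to 29.0, 35.0 and 26.6 in Nipponbare cold libraries, against 91.8, 207.3 and 91.03 in its control libraries. Lambayeque1 had 48.4, 44.8 and 36.4 in cold libraries and 196.4, 117.4 and 133.5 in control libraries. Cold and control did not overlap in either line, with changes of -2.07 and -1.76. Cht1 was near 0 in the other lines, with 1.23, 0.155 and 0.624 in Sasanishiki cold libraries, 0.367, 0.270 and 1.67 in Sasanishiki control libraries, 0.471, 5.21 and 1.24 in PL9 cold libraries, and 1.28, 2.502 and 6.68 in PL9 control libraries. All 12 libraries of Nipponbare and Lambayeque1, cold ones included, were above all 12 of the other lines. Over both treatments the difference was 4.92 on the log2 scale. Cht1 reached the highest mean of 5 only through Nipponbare and Lambayeque1, so this difference is tied to the choice and is a description.

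OPR1 (Os06g0216300, chromosome 6), a 12-oxophytodienoate reductase, of a family that reduces oxylipins and includes an enzyme of jasmonate synthesis, fell to 0.228, 0 and 0.502 in Nipponbare cold libraries, against 15.8, 15.5 and 3.83 in its control libraries. In Lambayeque1 it was 0.179, 0.0784 and 0.115 in cold libraries and 1.99, 1.92 and 3.12 in control libraries. The groups were apart in both lines, and untreated Nipponbare held the higher level. Sasanishiki had 0 in all cold libraries and 0.297, 0 and 0 in control libraries, and PL9 had 0.827, 0.407 and 0 in cold and 0.175, 2.06 and 0 in control libraries. OPR1 also belongs to a family of near copies, so its reads may be shared. Over both treatments OPR1 was lower in Lambayeque1 than in Nipponbare, with a difference of -0.93, and 5 of 6 Lambayeque1 libraries were below the Nipponbare median. That median lies between the cold and control libraries of Nipponbare, so the required fall adds to this count. OPR1 reached the highest mean of 5 only in untreated Nipponbare, so the difference is tied to the choice and is a description.

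The deepest fall in Nipponbare was that of Os10g0538200 on chromosome 10, with a change of -4.89. It fell to 0.164, 0.740 and 0.128 in Nipponbare cold libraries, against 23.98, 34.5 and 58.4 in control libraries, and to 0.249, 0.476 and 0.568 in Lambayeque1 cold libraries, against 10.1, 8.17 and 3.27 in control libraries. No Sasanishiki or PL9 library was above 0.561. Os06g0579100 on chromosome 6 had the same shape. Its signal was 0.517, 0.204 and 0.355 in Nipponbare cold libraries, against 42.0, 34.6 and 11.5 in control libraries, and 0.107, 0.222 and 0.103 in Lambayeque1 cold libraries, against 3.86, 7.85 and 4.66 in control libraries. It did not pass 0.123 in any Sasanishiki or PL9 library. Averaged over both treatments, Lambayeque1 differed from Nipponbare by -1.10 for Os10g0538200 and by -1.17 for Os06g0579100. For these genes 6 of 6 and 5 of 6 Lambayeque1 libraries were below the Nipponbare median. The fall required by the rule adds to these library counts as well. Untreated means were 38.9 in Nipponbare and 7.19 in Lambayeque1 for Os10g0538200, and 29.4 and 5.46 for Os06g0579100. In cold they were 0.344 and 0.431 for Os10g0538200, higher in Lambayeque1, and 0.359 and 0.144 for Os06g0579100. The differences thus follow the untreated levels and the falls for which the genes were named, and are descriptions.

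Other falling genes of this kind were Os03g0155900, Os02g0206700, Os08g0353700, Os05g0181300, Os01g0854000 and Os04g0570500. Their means were 0.104 to 1.05 in Nipponbare cold libraries, against 3.54 to 9.30 in control libraries, and 0.206 to 1.12 in Lambayeque1 cold libraries, against 5.21 to 12.4 in control libraries. None of them had a group mean above 2.95 in Sasanishiki or PL9. Os04g0650750 differed from them. It was 7.20, 0 and 0.634 in Nipponbare cold libraries, against 33.5, 42.0 and 60.2 in control libraries, and had a mean of 3.41 ± 3.02 in Lambayeque1 cold libraries, against 40.7 ± 14.7 in control libraries (SD, n = 3). In Sasanishiki it kept 78.4 ± 35.1 in cold libraries and 73.4 ± 28.0 in control libraries, and in PL9 27.3 ± 19.8 in cold and 32.9 ± 23.0 in control libraries (SD, n = 3). Os08g0293000 had means of 30.1 in cold and 30.8 in control libraries of Sasanishiki and of 12.6 in cold and 15.5 in control libraries of PL9, although the Sasanishiki control libraries spread over 65.4, 12.9 and 13.9. Its means in Nipponbare were 7.04 in cold and 43.2 in control libraries, and in Lambayeque1 6.34 in cold and 46.7 in control libraries.

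A further 3 falling genes were named for their high levels. Os02g0261100 averaged 92.2 ± 25.5 in Nipponbare cold libraries, against 233.0 ± 31.6 in control libraries, and 57.1 ± 16.2 in Lambayeque1 cold libraries, against 209.8 ± 109.5 in control libraries (SD, n = 3), while the 4 means of the other lines lay between 37.6 and 77.1. Os06g0147500 averaged 68.6 and 68.3 in cold libraries of these lines, against 147.4 and 185.7 in their control libraries, and 111.9 to 167.6 in the other lines. Os03g0154750 was a different case. It was low in both responding lines, with 0 in all Nipponbare cold libraries and 0, 0 and 5.88 in Nipponbare control libraries, and its highest means were 209.9 ± 130.5 in Sasanishiki cold and 291.5 ± 124.4 in Sasanishiki control libraries (SD, n = 3). Cold and control libraries overlapped in every line for this gene.

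**Figure D3:**
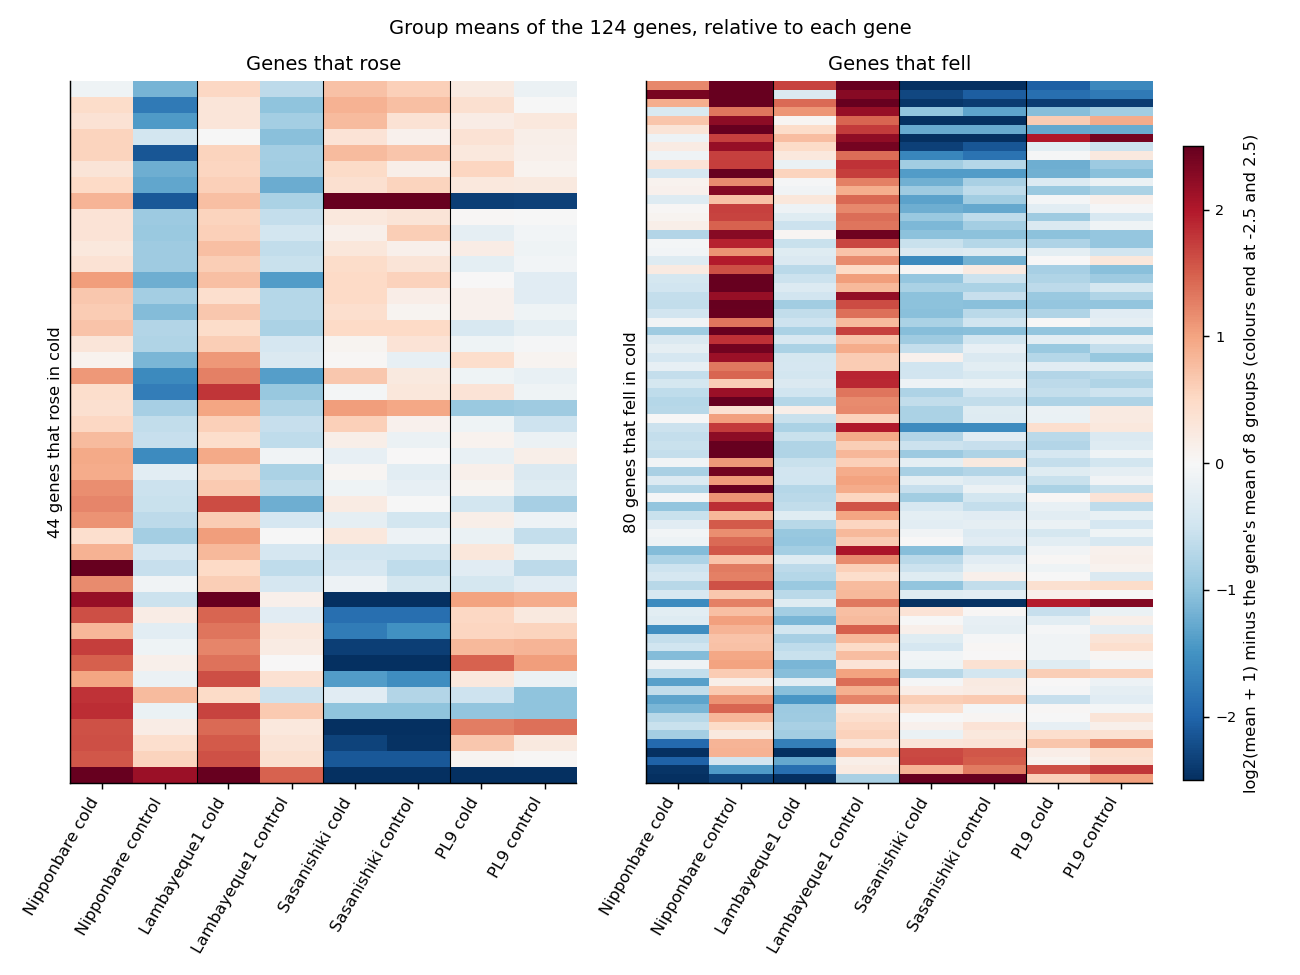
Group means of the 44 rising genes (left) and the 80 falling genes (right), one gene per row, as log2(mean + 1) minus the gene's mean over the 8 groups, with colours ending at -2.5 and 2.5. Rows run from genes whose Sasanishiki and PL9 level lies near or beyond the cold level of Nipponbare and Lambayeque1 (top) to those near or beyond the control level (bottom), and most falling genes are low in both treatments of Sasanishiki and PL9.

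A gene can change little because its level is steady or because it has almost no signal, and the members held both kinds. All 4 means of Sasanishiki and PL9 were below 1 in 3 of the 44 rising and 25 of the 80 falling genes, which is 6.82% and 31.2%, where 1.01% of all genes with a highest group mean of at least 5 had such means. A further 8 rising and 7 falling genes were below 1 in both treatments of Sasanishiki but not of PL9, and 2 rising and 2 falling genes in PL9 but not in Sasanishiki. All 4 means were at least 5 in 21 rising and 28 falling genes, which is 47.7% and 35.0%, against 60.9% of all genes with that highest mean. A gene near 0 in both treatments passes the limit of 0.5 by its level alone, so these shares are a description of what the rule took in. In the set chosen with the lines exchanged, the means of Nipponbare and Lambayeque1 were all below 1 in 0 of 46 rising and 15 of 41 falling genes, and all at least 5 in 21 rising and 6 falling genes.

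The 25 falling genes that were near 0 in Sasanishiki and PL9 lost most of their signal in cold. Their means had a median of 0.350 in Nipponbare cold libraries, with a range of 0.0441 to 24.2, against 10.1 in its control libraries, with a range of 1.64 to 87.2. In Lambayeque1 the median was 0.394 in cold libraries, with a range of 0.0529 to 13.3, against 4.01 in control libraries, with a range of 1.82 to 47.7. Untreated Nipponbare had the higher level of these lines for 20 of the 25, whereas it did for 62.5% of all 80 falling genes and 48.3% of all genes with a highest mean of at least 5. Of the 80 falling genes, 21 had cold means below 1 in both Nipponbare and Lambayeque1, and 2 of the 44 rising genes had control means below 1 in both.

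Of 13 listed products of the tapetum and the pollen wall, 10 had an untreated mean that was highest in Nipponbare, lower in Lambayeque1 and lower still in both other lines, and OsC6, OsABCG26 and RAFTIN1 did not. CYP703A3 averaged 1217 ± 878 in Nipponbare cold libraries, against 318.5 ± 127.1 in control libraries, and 163.6 ± 158.8 in Lambayeque1 cold libraries, against 32.4 ± 14.3 in control libraries (SD, n = 3). In Sasanishiki it averaged 417.1 ± 53.9 in cold libraries, against 0.573 ± 0.372 in control libraries, and in PL9 543.8 ± 754.2 in cold libraries, against 0.506 ± 0.109 in control libraries (SD, n = 3). All 13 had a mean of at least 1 in untreated Nipponbare and in untreated Lambayeque1, 11 in untreated Sasanishiki and 8 in untreated PL9. The summed signal of these 13, which did not follow that order, was 69290 to 124100 in Nipponbare cold libraries, against 9433 to 14740 in control libraries, 52330 to 60100 in Lambayeque1 cold libraries, against 5116 to 7858 in control libraries, 39960 to 56040 in Sasanishiki cold libraries, against 7085 to 17130 in control libraries, and 38880 to 84720 in PL9 cold libraries, against 5774 to 18780 in control libraries. The part of such differences between untreated lines in the members' changes was not tested.

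**Figure D4:**
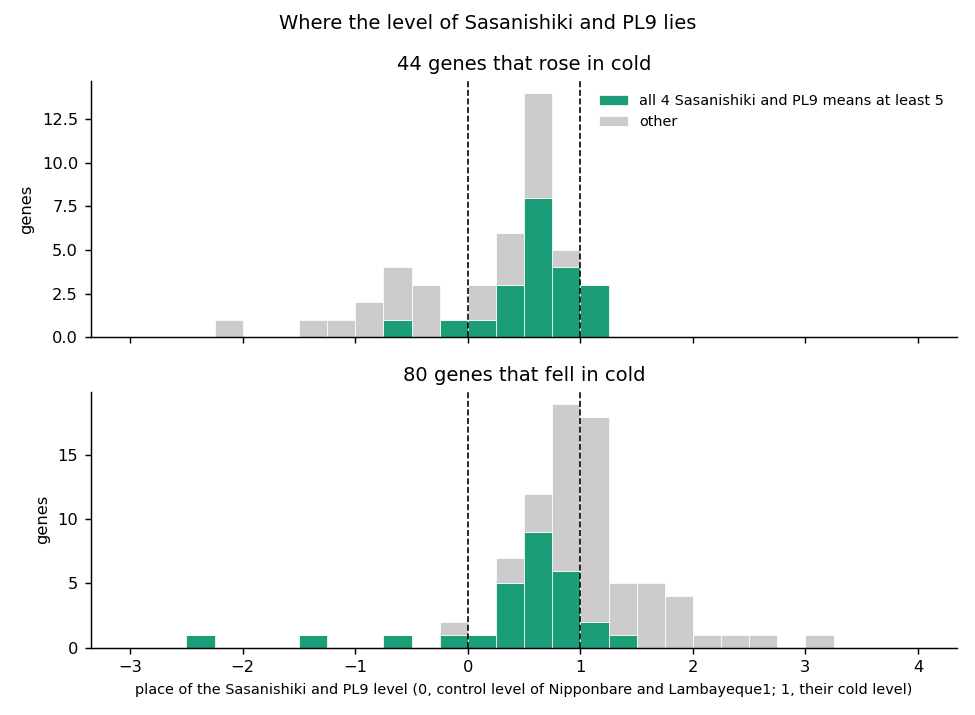
Number of genes by the place of the Sasanishiki and PL9 level, where 0 is the mean control level and 1 the mean cold level of Nipponbare and Lambayeque1 on the log2(mean + 1) scale (dashed lines). Genes with all 4 Sasanishiki and PL9 means at least 5 are green and the others grey, and the falling genes gather around the cold level.

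Set on a scale where 0 is the control level and 1 the cold level of Nipponbare and Lambayeque1, the level of Sasanishiki and PL9 had a median place of 0.978 for falling genes and 0.507 for rising genes. It was nearer the cold level for 67 of the 80 falling genes and nearer the control level for 13. In 25 of the 80 all 4 means of Sasanishiki and PL9 were below 1, which by itself sets the place near or beyond the cold level. Of the rising genes 22 were nearer the cold level and 22 nearer the control level. It lay beyond the cold level for 36 falling and 3 rising genes, and beyond the control level for 5 falling and 13 rising genes. Among genes with all 4 means of Sasanishiki and PL9 at least 5, it was nearer the cold level for 18 falling and 15 rising genes and nearer the control level for 10 falling and 6 rising genes. The place averages both lines, which can be unlike each other. Rising Os03g0812500, at -0.85, had 0 in Sasanishiki, but PL9 means of 19.2 and 20.5, near the cold means of 23.8 in Nipponbare and 21.0 in Lambayeque1. Falling Os07g0625400, at 1.89, was below 1 in Sasanishiki. Its PL9 means were 110.1 in cold and 145.2 in control libraries, against control means of 89.6 in Nipponbare and 129.3 in Lambayeque1.

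The average level of a line over both treatments does not enter the rule as a difference, and it was tested with limma over all 22495 genes that reached 1 in 3 or more libraries, a filter that all 124 members passed. It is still tied to the choice, since a gene with all means below 1 in Sasanishiki and PL9 can be a member. A gene with both means below 1 in Nipponbare or in Lambayeque1 cannot, as its change there stays under 1. Of the 80 falling genes, 53 were higher and 5 lower in Nipponbare and Lambayeque1 than in Sasanishiki and PL9 at an adjusted p under 0.05, where 28.0% of all genes tested were higher and 21.3% lower. Of the 44 rising genes, 14 were higher, 8 lower and 22 not called. The comparison averages Sasanishiki and PL9. In 8 rising and 7 falling genes only Sasanishiki had both means below 1, and in 2 rising and 2 falling genes only PL9. Os03g0812500, a rising gene called higher, was at 0 in Sasanishiki, while PL9 averaged 19.2 in cold and 20.5 in control libraries. Nipponbare averaged 23.8 in cold and 8.46 in control libraries, and Lambayeque1 21.0 and 8.92, so its higher level did not hold against PL9. The median difference was 0.87 for falling genes and 0.07 for rising genes on the log2 scale, against 0.05 for all genes tested. Among members with all 4 means of Sasanishiki and PL9 at least 5, the counts were 9 higher and 4 lower of 28 falling genes and 2 higher and 8 lower of 21 rising genes. Most of the 53 falling genes called higher thus had a mean below 5 in Sasanishiki or PL9. The share called among all genes with such 4 means was not computed, so these smaller counts are a description.

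Among the named genes, Os07g0432566 had the largest such difference, 5.72, with signal in all 12 libraries of Nipponbare and Lambayeque1 and 0 in all 12 of the other lines. It reached the highest mean of 5 only through Nipponbare and Lambayeque1, so its difference is tied to the choice and is a description. HSP81-1, averaged over both treatments, was higher in Nipponbare and Lambayeque1 by 0.50 (SE 0.153, adjusted p = 0.0115, limma), with 8 of 12 libraries above the median of the other lines. Its control means were 341.5 in Nipponbare and 268.2 in Lambayeque1, against 119.9 in Sasanishiki and 141.2 in PL9. In cold they were 144.5 and 78.4, against 142.8 and 112.2, so the higher level did not hold in cold. Os03g0184000 was lower over both treatments, with a difference of -0.69 (SE 0.122, adjusted p = 0.000123, limma) and 10 of 12 libraries below the median of the other lines. Os07g0549900 was lower with a difference of -1.01 (SE 0.164, adjusted p = 4.968e-05, limma) and also 10 of 12 libraries below. For both genes a cold mean of Nipponbare or Lambayeque1 was above the cold mean of PL9. For ALK the difference was -0.26 (SE 0.229) and did not pass the test (adjusted p = 0.364, limma).

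The responding lines were also compared in average level. In Lambayeque1 against Nipponbare 5 rising genes were higher, 2 lower and 37 not called, where 4.98% of all genes tested were higher and 6.90% lower. Of the falling genes 4 were higher, 12 lower and 64 not called. These counts were not stable, since leaving out single libraries gave 1 to 6 rising genes higher and 8 to 21 falling genes lower, with 21 without Nipponbare control library 3, and a pseudocount of 0.1 gave 4 falling genes lower. Between PL9 and Sasanishiki 9 rising genes were higher, 5 lower and 30 not called, with backgrounds of 15.5% and 13.1%, and 18 falling genes were higher, 7 lower and 55 not called. Os11g0122800 showed the widest gap among the named genes, with means of 0.174 in cold and 0.198 in control libraries of PL9, against 44.7 in cold and 49.1 in control libraries of Sasanishiki, a difference of -5.01 (SE 0.691, adjusted p = 9.226e-06, limma) with 6 of 6 PL9 libraries below the Sasanishiki median.

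Members lay on all 12 chromosomes, from 5 on chromosome 9 to 21 on chromosome 3, which held 16.9% of the members and 12.7% of the genes tested. In identifier order among genes tested, 6 pairs of members were next to each other, and in all 6 both genes changed in the same direction. Rising pairs were Os03g0184000 with Os03g0184100 and Os09g0528500 with Os09g0528700. Falling pairs were Os01g0895200 with Os01g0895300, Os02g0597200 with Os02g0597300, HSP81-1 with Os08g0500800, and Os10g0537800 with Os10g0538200. At most 5 steps apart there were 9 pairs, 8 of them in the same direction, and the exception was Os03g0136700, which rose, and Os03g0137350, which fell. Os10g0537800 had 0.408, 0.174 and 0.170 in Nipponbare cold libraries, against 8.34, 8.09 and 14.0 in control libraries, much like its neighbour Os10g0538200. Whether neighbours share reads was not tested.

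No member was among the 57 identifiers on 1 row that 11 lists hold for pollen wall and tapetum products, tapetum regulators, cold-protective proteins, abscisic acid, cold transcription factors, the circadian clock, photosynthesis, heat shock, stamen identity, carpel and outer floret, and maturing pollen, which is 0 of 57. Members were 124 of all 22495 genes tested, and 0.379% to 0.734% of those on a chromosome. The count of 0 is near that share and says little about the lists. The names of 44 of the 57 matched the reference table, those of 12 are not in it, and OsTDL1A stands elsewhere in it. The 13 pollen wall and tapetum products had median changes of 1.59 in Nipponbare, 2.71 in Lambayeque1, 4.95 in Sasanishiki and 5.72 in PL9, so its median change was larger in Sasanishiki and PL9 than in the lines in which the members changed. The 4 heat shock genes had median changes of -2.14 in Nipponbare, -3.64 in Lambayeque1, -1.80 in Sasanishiki and -2.91 in PL9, whereas HSP81-1, which is not in that list, changed by 0.25 in Sasanishiki and by -0.33 in PL9. The 6 cold transcription factors had median changes of -2.73 in Nipponbare, -2.30 in Lambayeque1, -3.36 in Sasanishiki and -0.91 in PL9.

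To see the same measure in libraries that the rule did not use, the rule was applied to 16 libraries, with 1 replicate number left out of every group, and the change was then read in the 8 libraries left out. With number 1 left out, 50 rising and 86 falling genes were chosen, of which 25 and 43 are among the 44 and 80 members. In the libraries left out, the rising genes had median changes of 1.64 in Nipponbare, 0.96 in Lambayeque1, 0.24 in Sasanishiki and 0.03 in PL9, and the falling genes of -1.74, -1.33, -0.50 and -0.28 in the same order of lines. With number 3 left out, 44 rising and 89 falling genes were chosen, 19 and 44 of them members. The rising genes then had median changes of 0.96, 1.03, 0.22 and 0.36 in that order of lines, and the falling genes of -1.10, -1.29, -0.44 and -0.27. In both cases the left-out libraries of Nipponbare and Lambayeque1 moved further than those of the other lines, and Sasanishiki moved further than in the libraries used.

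**Figure D5:**
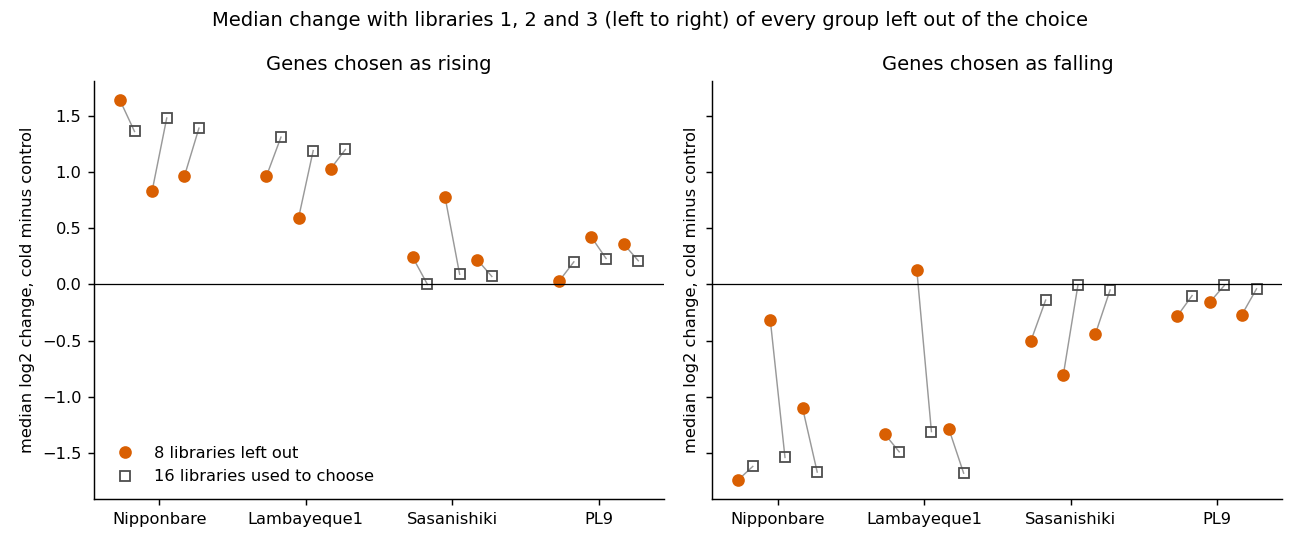
Median log2 change, cold minus control, of the genes chosen with libraries numbered 1, 2 or 3 of every group left out (left to right within a line), in the 8 libraries left out (filled circles) and in the 16 libraries used for the choice (open squares). With number 2 left out, the falling genes had a median of -0.32 in Nipponbare, 0.13 in Lambayeque1 and -0.81 in Sasanishiki in the libraries left out.

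With number 2 left out the picture did not hold. The rule then chose 74 rising and 142 falling genes, of which 19 and 33 are members. In the libraries left out the rising genes had median changes of 0.83 in Nipponbare, 0.59 in Lambayeque1, 0.78 in Sasanishiki and 0.42 in PL9, and the falling genes of -0.32, 0.13, -0.81 and -0.16 in that order of lines. All conditions of the rule on the changes were met in the libraries left out by 4, 2 and 5 of the rising genes and by 13, 10 and 17 of the falling genes, for numbers 1, 2 and 3. Both small-change limits were met by 28.0%, 13.5% and 27.3% of the rising genes and by 26.7%, 16.2% and 37.1% of the falling genes, where 35.0%, 26.2% and 36.0% of all genes with a highest mean of at least 5 in the libraries used met them. Membership of a given gene thus depended on which libraries were used, and the cause was not tested.

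The members nearest to the limits show how fine they are. Just inside the limit of 1 were Os05g0420000 at 1.0044, Os12g0417300 at 1.0069 and Os08g0486233 at 1.0111, as the smaller absolute change of Nipponbare and Lambayeque1, and just outside it Os12g0169400 at 0.9998, Os03g0708500 at 0.9899 and Os06g0501900 at 0.9879. Just inside the limit of 0.5 were Os07g0589600 at 0.4969, Os03t0733800-01 at 0.495 and Os01g0945100 at 0.4906, as the larger absolute change of Sasanishiki and PL9, and just outside it Os07g0237900 at 0.5013, Os07g0123900 at 0.5049 and Os02g0662100 at 0.5064. Just inside the highest mean of 5 were Os01g0945100 at 5.19, Os04g0570500 at 5.21 and Os07g0524900 at 5.40, and just outside it Os03g0712733 at 4.94, Os12g0149700 at 4.81 and Os12g0527301 at 4.66.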

How the data were processed

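RNA of rice anthers was sequenced in 24 libraries, 3 in each of 8 groups of line and treatment. Each deposited file gives a signal in a column that is called TPM per the file headers, although the totals exceed that of TPM. Libraries were prepared with strand marking per the labels' protocols, and kallisto 0.46.2, sleuth 0.30.0 and the IRGSP-1.0 build stand in the submitters' processing notes. Each file has 44785 rows, and 5399 identifiers on several rows hold values that belong to neighbouring libraries, so the 32511 identifiers on 1 row were used. Without counts, no depth and no counting interval can be given. The design had assumed TPM and the test suits the signal as well.

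Changes and levels were computed on log2(value + 1), which understates the change of low genes. Average levels of lines were compared by limma 3.58.1 under R 4.3.3 (lmFit, then eBayes with trend), in 1 fit of 8 group means to all 24 libraries, for the 22495 identifiers that reached 1 in 3 or more libraries. P-values were adjusted by Benjamini-Hochberg over these within each of 3 comparisons. The fit was tested on simulated data. Python 3.11.15 was used with numpy 2.4.6, pandas 2.3.3 and, for figures, matplotlib 3.10.9.

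The members, their rule and all gene lists were chosen with earlier results of these data known. Named genes were, for each direction, the 10 members with the largest smaller absolute change of Nipponbare and Lambayeque1 and the 5 with the highest group mean, the members with a checked name, and the 3 identifiers on either side of each limit. Os08g0500800, Os10g0537800, the other neighbours and tapetum genes were named for their position or list. Names come from a reference table of another assembly (ASM3414082v1) that holds no identifiers of this kind, and were accepted where chromosome and relative gene order agreed within 2%, as they did for 4 members. No genome or sequence was used here. Alternatives changed the pseudocount (0.1 or 5), the scaling, the level limit (1 or 10), the filter, the averaging and the libraries used.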

Additional observations from a re-analysis of the deposited data

Results flagged for a closer look

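In 3 members all cold libraries of Sasanishiki or PL9 lay on the opposite side of the control libraries from those of Nipponbare and Lambayeque1. The difference between the lines was not tested for these genes, and the genes were chosen for a change that differs between lines. Os03g0136700, which rose in Nipponbare and Lambayeque1, changed by -0.48 in Sasanishiki, with 6.38, 6.29 and 6.03 in cold libraries, against 9.63, 11.3 and 6.41 in control libraries. Os08g0500800, which fell, changed by 0.31 in Sasanishiki, with 15.2, 12.5 and 13.5 in cold libraries, against 11.2, 9.27 and 12.2 in control libraries, while in PL9 its cold libraries were all below its control libraries. Os07g0524900, which fell, changed by 0.10 in PL9, where all 6 values were at most 0.136, close to no signal.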

How the results depend on the processing

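Membership depended on the libraries and the scale more than the counts show. Leaving out single libraries, or 1 replicate number in every group, gave 38 to 74 rising and 70 to 142 falling genes. Number 2 left out of every group gave the highest counts, 74 and 142, with 19 and 33 members among them. A pseudocount of 5 gave 21 rising genes, 10 of them members, and 72 falling genes, 35 of them members. With a pseudocount of 0.1 there were 53 rising genes, 32 of them members, and 61 falling genes, 46 of them members. Counting apart the members with all Sasanishiki and PL9 means at least 5, and taking PL9 cold from library 3 alone, were chosen after seeing the data, and the first kept 21 rising and 28 falling genes. The other scalings, level limits and averaging gave counts within 1.5 times those reported.

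Leaving out single libraries, the counts of members called ranged as follows. For Nipponbare and Lambayeque1 against Sasanishiki and PL9, 14 to 17 rising genes were higher and 8 to 9 lower, and 53 to 54 falling genes were higher and 4 to 6 lower. For Lambayeque1 against Nipponbare, 1 to 6 rising genes were higher and 1 to 3 lower, and 4 to 6 falling genes were higher and 8 to 21 lower, with 21 without Nipponbare control library 3. For PL9 against Sasanishiki, 9 to 10 rising genes were higher and 5 to 8 lower, and 16 to 19 falling genes were higher and 5 to 9 lower. In Lambayeque1 against Nipponbare, no filter on low values gave 3 rising genes higher, a filter of at least 5 in at least 3 libraries gave 1 lower, and a pseudocount of 0.1 gave 1 rising gene lower, 2 falling genes higher and 4 lower. The causes were not tested.

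Replicate numbers did not pair the libraries. Deviations of same-numbered cold and control libraries of a line correlated between -0.39 and 0.12, those of all 84 same-numbered pairs between -0.53 and 0.49, and 5 of 24 libraries correlated best with their own number. With the replicate number as a block, 14 rising genes were higher and 8 lower and 53 falling genes higher and 4 lower in Nipponbare and Lambayeque1 than in the other lines, and no count of members called moved by over 1.5 times. The level difference of Os08g0293000, -0.09 (adjusted p = 0.819, limma), ranged from -0.21 to 0.10 with single libraries left out, and was 0.01 without Nipponbare control replicate 3 and 0.03 without PL9 cold replicate 2. Of the other level differences of named genes, 4 genes passed the test under some alternative but not in the values reported.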
